A study of Homo sapiens with 9 samples.

Results

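The miR-191 and miR-425 cluster consists of the mature miRNAs hsa-miR-191-5p, hsa-miR-191-3p, hsa-miR-425-5p and hsa-miR-425-3p, the 2 arms of each of 2 neighbouring hairpins. The members were taken by name from the raw count table, where each had 1 row, which gave 4 of 2883 rows (2654 distinct mature names). The cluster was selected on the high level of miR-191-5p, which was known from earlier results of these libraries, so levels are described here and not tested. The 9 small RNA libraries came from Jurkat cells of clone E6-1, a human T lymphoblast cell line in long-standing use. The groups were unactivated control cells (0 h) and cells activated for 5 h or 12 h on plates coated with antibody to CD3 (10 µg/mL) with antibody to CD28 in the medium (5 µg/mL), with 3 biological replicates each. CD3 carries the signal of the T cell antigen receptor into the cell, and CD28 is a costimulatory receptor. All groups are the same line and carry no engineered allele. Unactivated cells were sampled only at 0 h, so activation and time in culture cannot be told apart.

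A miRNA is cut from a hairpin in a longer transcript, and either strand of the resulting duplex can be loaded into an Argonaute protein, where bases 2 to 8, the seed, pair with target mRNAs. The strand from the left side of the hairpin is the 5p arm and that from the right side the 3p arm. mir-191 and mir-425 lie in an intron of DALRD3, a protein-coding gene active in most tissues, and are transcribed together with it. miR-191-5p is often used as a reference RNA to scale PCR measurements of other miRNAs, and in mice miR-191 has been linked to the survival of T cells.

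The mature sequences are given to show how the arms differ, with the seed in capitals. They come from RefSeq (GRCh38.p14), where 3 of the 4 members matched by name, and all lie on the minus strand of chromosome 3.
miR-191-5p (chr3:49020672-49020694): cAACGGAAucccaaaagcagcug
miR-191-3p (chr3:49020631-49020652): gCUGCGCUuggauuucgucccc
miR-425-3p (chr3:49020159-49020180): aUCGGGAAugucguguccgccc
The 3 seeds differ from each other, and none was shared with any other of the 2370 mature miRNAs in the reference table. That reference holds 2365 of the 2654 mature names counted here, and the rest, miR-425-5p among them, were not searched. miR-191-5p has 23 bases and a GC content of 52.2%, whereas miR-191-3p and miR-425-3p have 22 bases and 63.6% each.

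The RefSeq hairpins are shown because the 2 precursors differed most in how their counts were divided between arms. Capitals mark both arms in mir-191 and the 3p arm in mir-425.
mir-191 (chr3:49020618-49020709): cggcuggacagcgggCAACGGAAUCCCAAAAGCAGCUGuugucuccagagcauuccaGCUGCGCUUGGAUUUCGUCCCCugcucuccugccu
mir-425 (chr3:49020148-49020234): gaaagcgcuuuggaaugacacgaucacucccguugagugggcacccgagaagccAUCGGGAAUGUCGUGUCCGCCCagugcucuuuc
Folding with RNAfold gave a minimum free energy of -46.8 kcal/mol for mir-191 (92 bases) and -34.5 kcal/mol for mir-425 (87 bases). In these folds 18 of 23 bases of miR-191-5p, 18 of 22 of miR-191-3p and 18 of 22 of miR-425-3p were paired.

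In GENCODE 29 (GRCh38) both hairpins lay in intron 1 of each of the 4 DALRD3 transcripts that span them, with 383 bases between the hairpins and mir-191 transcribed first. No exon of another gene overlapped either hairpin. NDUFAF3, which encodes an assembly factor of mitochondrial complex I, starts between them on the opposite strand. mir-191 lies in intron 1 of its transcript NDUFAF3-201.

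**Figure D1:**
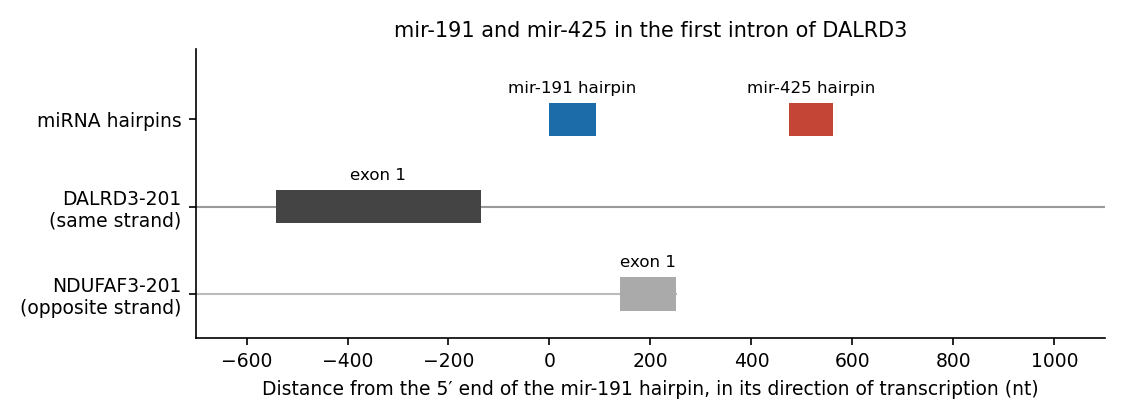
Map of the locus, with distance in nucleotides from the 5′ end of the mir-191 hairpin in its direction of transcription on the horizontal axis. Boxes are the hairpins, exon 1 of DALRD3-201 on the same strand and exon 1 of NDUFAF3-201 on the opposite strand, and lines mark where the transcripts continue; a reader should see both hairpins after exon 1 of DALRD3, 383 bases apart.

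Total counts were 6631839 to 16207031 per library, and replicate 3 of 0 h (7083813) and of 12 h (6631839) were the shallowest. The deviations of those 2 libraries from their group means, over 139 rows with a mean level of at least 100, had a correlation of 0.62. Other pairs of libraries from different times had correlations of similar size, such as 0.72 for replicate 2 of 0 h with replicate 1 of 12 h and -0.72 for replicate 3 of 0 h with replicate 1 of 12 h. Values without the 2 shallowest libraries are given where they differ by over 1.5 times or in direction. Levels are given as CPM, a row's counts for every 1000000 counts in its library, with library sizes scaled by TMM. miR-142, miR-150, miR-181a and miR-181b (5 arms), listed here as lymphoid, summed to 51841 to 74472 CPM. The 12 miRNAs listed here for other cell types summed to 213 to 358 CPM. The 5 arms of the lymphoid list were uneven, with 25491 to 41682 CPM for miR-181a-5p and 14648 to 21297 CPM for miR-181b-5p. miR-150-5p had only 230 to 280 CPM, within the range of the sum of the other list. Of the 12 in that list, the neuronal miR-124-3p and the muscle miRNAs miR-1-3p, miR-133a-3p and miR-208a-3p were at 0 in all 9 libraries. The myeloid miR-223-3p was highest with 106 to 157 CPM, followed by miR-200c-3p with 66.3 to 127 CPM.

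miR-191-5p, the main strand of mir-191, was the second most abundant miRNA over the 9 libraries. Its level was 76954, 76243 and 91551 CPM in replicates 1, 2 and 3 at 0 h. At 5 h it was 76749, 77869.7 and 68310.4 CPM, and at 12 h 69118, 85440.3 and 80211 CPM. The 3 groups overlapped, with the highest value in replicate 3 of 0 h and the lowest in replicate 3 of 5 h. With each mature miRNA counted once, miR-191-5p held 12.5% ± 0.866 of all counts in control cells, 11.8% ± 0.572 after 5 h and 12.2% ± 0.985 after 12 h (SD, n = 3). The miRNA next above it was let-7a-5p, a member of the let-7 family of differentiation-linked miRNAs, with 86540.4 ± 7983 CPM against 78050 ± 7266 CPM for miR-191-5p (SD, n = 9). let-7a-5p was higher in 8 of 9 libraries, though the ranges over the libraries overlapped. Next below was miR-16-5p, of the miR-15/16 family that represses cell cycle genes, with 53018 to 67091 CPM, below miR-191-5p in all 9 libraries and without overlap. Each of these levels depends on how well the library kit captured that sequence, which the files do not measure. The labels describe library kits for mRNA only, and the small RNA kit is not given in them.

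miR-191-3p, the opposite strand, had 38.3, 38.1 and 25.4 CPM at 0 h. At 5 h it had 33.0, 33.8 and 15.3 CPM, and at 12 h 32.6, 26.2 and 23.4 CPM. The lowest value at each time was that of replicate 3, and the groups overlapped. These levels rest on 149 to 595 counts per library, so that counting error alone amounts to 8.19% in the shallowest library. miR-191-3p ranked 176 of 1098 detected mature miRNAs, and its neighbours in that order, miR-185-3p (29.7 ± 7.67 CPM) and miR-3667-5p (29.5 ± 5.40 CPM), did not differ from its 29.6 ± 7.57 CPM beyond their spread (SD, n = 9).

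With TMM scaling miR-425-5p was even across replicates at 0 h, with 1007, 1015 and 1017 CPM. As a share of counts, with each mature miRNA counted once, it was less even there, with 0.160%, 0.156% and 0.149%. Its levels were 1101, 1076 and 1127 CPM at 5 h and 1131, 1239.8 and 954 CPM at 12 h. All 3 libraries at 5 h lay above all 3 at 0 h, whereas the 12 h libraries spanned both groups. The 6675 counts in replicate 3 of 0 h and 6078 in replicate 3 of 12 h were the fewest for this arm, which puts counting error at 1.28% or less. miR-425-5p ranked 46 with 1074 ± 86.6 CPM, between miR-28-3p (1199 ± 214 CPM) and miR-652-3p (998 ± 89.3 CPM), and the ranges of all 3 overlapped (SD, n = 9).

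miR-425-3p was the arm with the widest spread among the 3 more abundant members. It had 1434, 1215 and 2070.1 CPM at 0 h, 1244, 1145 and 1164 CPM at 5 h, and 1131, 1845 and 2381 CPM at 12 h. Replicate 3 of 12 h, replicate 3 of 0 h and replicate 2 of 12 h were the highest, and the other 6 libraries lay between 1131 and 1434 CPM. Those top 3 libraries include both of the shallowest, but replicate 2 of 12 h had 11798947 counts in total. The part of depth in this spread was not tested. miR-425-3p ranked 39, next to miR-29c-3p (1670.2 ± 206 CPM) and miR-142-5p (1470 ± 123 CPM), and its 1514 ± 467 CPM did not differ from either beyond its spread (SD, n = 9).

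**Figure D2:**
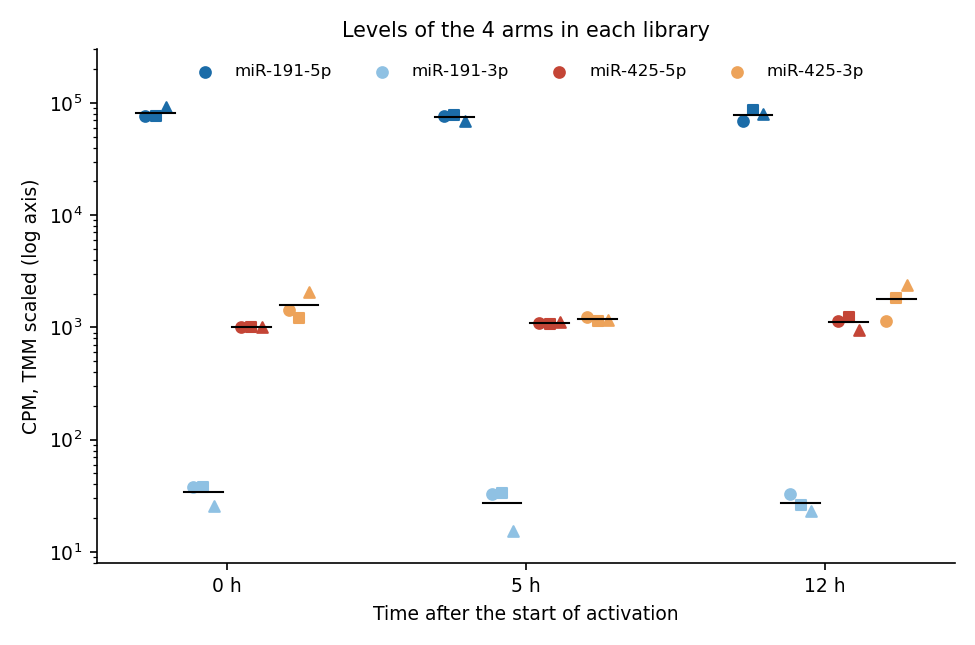
CPM of each arm (log axis) by time after the start of activation; each point is 1 library (circle, square and triangle for replicates 1, 2 and 3) and each bar the mean of 3. miR-191-5p lies between 68310.4 and 91551 CPM, the mir-425 arms between 954 and 2381 CPM and miR-191-3p between 15.3 and 38.3 CPM at all 3 times.

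Within the cluster, miR-191-5p held 96.8% ± 0.364 of the counts, miR-425-3p 1.86% ± 0.451, miR-425-5p 1.34% ± 0.176 and miR-191-3p 0.0369% ± 0.0104 (SD, n = 9). The order miR-191-5p, then the mir-425 arms, then miR-191-3p held in all 9 libraries, and miR-425-3p exceeded miR-425-5p in 8 of 9. The exception was replicate 1 of 12 h, with 15134 counts of the 3p and 15140 counts of the 5p arm.

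The question of the study is how miRNAs act during T cell activation, and the first comparison asked whether the cluster had changed after 5 h. None of its 4 arms passed the threshold, an adjusted p of 0.05 over all 701 tested rows. Of those rows 11 passed, or 1.57%, so that no member passing is near that background. miR-191-5p had 0.911-fold its 0 h level (log2 change -0.13, SE 0.11, edgeR adjusted p = 0.996), with a 95% interval of 0.775- to 1.07-fold. Without the 2 shallowest libraries its log2 change was -0.043, and without replicate 2 of 0 h or of 5 h it was -0.22. miR-425-5p had 1.09-fold (log2 change 0.12, SE 0.12, edgeR adjusted p = 0.996), with an interval of 0.918- to 1.29-fold. Its groups did not overlap, which was also true of 10.8% of all rows at 5 h. For miR-425-3p the ratio was 0.753 (log2 change -0.41, SE 0.21, edgeR adjusted p = 0.703), with an interval of 0.556- to 1.02-fold. This difference rested largely on replicate 3 of 0 h, without which the log2 change was -0.16, as it was without both shallow libraries. The least abundant arm, miR-191-3p, had 0.803-fold (log2 change -0.32, SE 0.31, edgeR adjusted p = 0.996), and its interval of 0.509- to 1.27-fold was the widest of the 4. Its log2 change was -0.49 without the 2 shallowest libraries and -0.063 without replicate 3 of 5 h. At an unadjusted p under 0.05 edgeR, DESeq2 and limma-voom each called 0 of the 4 at 5 h, and edgeR 42 of the 701 rows.

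miR-132-3p, a CREB-induced miRNA, is given for comparison and was picked because it was known from earlier results to change in these data. It rose from 488, 419.7 and 418 CPM at 0 h to 3331, 2854 and 3391 CPM at 5 h (log2 change 2.85, SE 0.12, edgeR adjusted p = 3.19e-12). The SE of its change was close to the 0.11 and 0.12 of miR-191-5p and miR-425-5p.

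At 12 h, again 0 of the 4 arms passed against 0 h, where 10 of 701 rows (1.43%) did. miR-191-5p was at 0.959-fold (log2 change -0.06, SE 0.11, edgeR adjusted p = 0.986), with a 95% interval of 0.817- to 1.13-fold. The direction of this small difference turned with upper quartile scaling (log2 change 0.10), which raised the median of all rows by 0.16, without replicate 3 of 0 h (0.036) and without the 2 shallowest libraries (0.00175). miR-425-5p stood at 1.09-fold (log2 change 0.13, SE 0.12, edgeR adjusted p = 0.965; interval 0.924- to 1.30-fold). Its log2 change was 0.22 without the 2 shallowest libraries and 0.021 without replicate 2 of 12 h. For miR-191-3p the value was 0.807-fold (log2 change -0.31, SE 0.31, edgeR adjusted p = 0.974; interval 0.511- to 1.27-fold). miR-425-3p was 1.13-fold higher (log2 change 0.18, SE 0.21, edgeR adjusted p = 0.974; interval 0.838- to 1.54-fold), and the log2 change was -0.12 without replicate 3 of 12 h and -0.021 without replicate 2 of 0 h. No member had groups that did not overlap, against 12.1% of rows. Unadjusted p under 0.05 was reached by 0 of the 4 with edgeR, DESeq2 or limma-voom, and by 51 of 701 rows with edgeR. Because the 0 h libraries serve as controls for 5 h and for 12 h, these comparisons are not independent.

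Between 12 h and 5 h, 0 of the 4 arms passed, against 4 of 701 rows (0.571%). miR-425-3p had the largest difference of the 4, from 1184 ± 52.5 CPM at 5 h to 1785 ± 627 CPM at 12 h (SD, n = 3). This is a ratio of 1.51 (log2 change 0.59, SE 0.21), with a 95% interval of 1.11- to 2.04-fold. Its unadjusted p was 0.0110, and its edgeR adjusted p of 0.592 missed the threshold. Replicate 1 of 12 h, at 1131 CPM, was below all 3 libraries of 5 h, so the groups overlapped (12.8% of rows had groups that did not), and 2 of 3 libraries at 12 h lay above 5 h. Without replicate 1 of 12 h the row passed (log2 change 0.81, edgeR adjusted p = 0.00259). With no filter on low counts it passed (0.60, edgeR adjusted p = 0.00127), and so it did with the replicate number as a block (0.53, edgeR adjusted p = 0.0112). These last fits had 7284 and 164 degrees of freedom, against 18.0 as reported, and smaller SEs of 0.133 and 0.135. Without replicate 3 of 12 h the log2 change was 0.31 (edgeR adjusted p = 0.915), and without both shallow libraries 0.32 (0.851).

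The other 3 arms were nearly level between 12 h and 5 h. miR-191-5p had 1.05-fold (log2 change 0.07, SE 0.11; interval 0.897- to 1.24-fold). miR-425-5p had 1.01-fold (log2 change 0.01, SE 0.12; interval 0.850- to 1.19-fold), and miR-191-3p 1.00-fold (log2 change 0.01, SE 0.31; interval 0.636- to 1.59-fold). The edgeR adjusted p was 1 for all 3. Without the 2 shallowest libraries these log2 changes were 0.045, 0.092 and 0.11. At an unadjusted p under 0.05, 1 of the 4 arms, miR-425-3p, was called by edgeR, by DESeq2 and by limma-voom, and edgeR called 43 of 701 rows. A p that misses the threshold does not show that levels were equal; the intervals give the changes that these libraries leave possible.

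**Figure D3:**
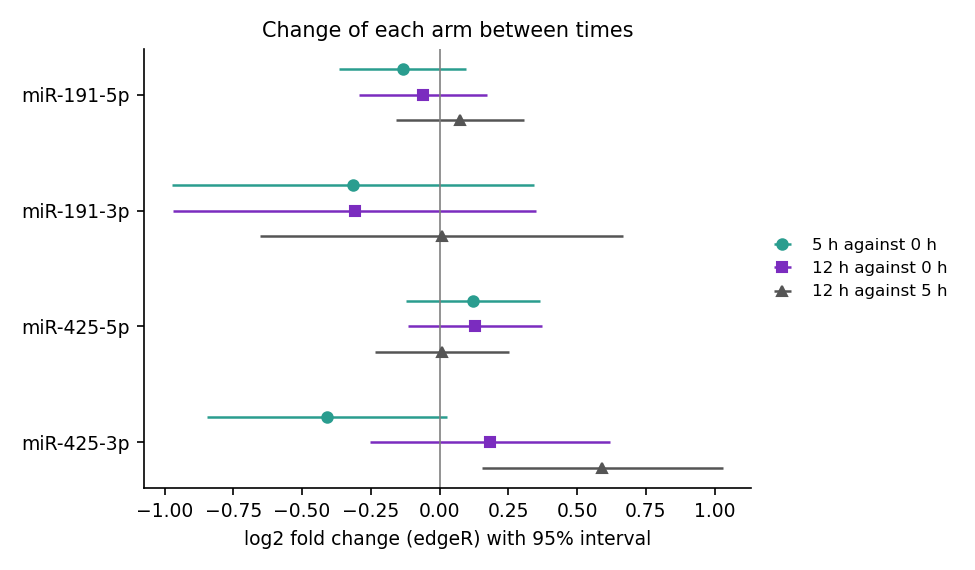
log2 fold change of each arm between times, from edgeR, with 95% intervals over 3 libraries per group; circles are 5 h against 0 h, squares 12 h against 0 h and triangles 12 h against 5 h. Of the 12 intervals only that of miR-425-3p between 12 h and 5 h (0.15 to 1.03) lies off 0, and it did not pass after adjustment.

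The share of all counts held by the cluster was 12.9% ± 0.920 in control cells, 12.1% ± 0.572 after 5 h and 12.7% ± 1.03 after 12 h (SD, n = 3). At 5 h the share differed from that at 0 h by -0.739 percentage points (two-sided exact permutation p = 0.5, adjusted p = 0.7 over 3 pairs). At 12 h it differed from 0 h by -0.156 percentage points (exact permutation p = 0.7, adjusted p = 0.7). Between 12 h and 5 h the difference was 0.583 points (exact permutation p = 0.5, adjusted p = 0.7). Without replicate 3 of 0 h the first of these was -0.235 points, the same as without the 2 shallowest, and dropping replicate 2 of 12 h left 0.039 points for the last. With 3 libraries in each group no p below 0.1 is possible. The difference at 12 h against 0 h changed sign without the 2 shallowest libraries (0.408 points) and without replicate 3 of 0 h (0.347) or replicate 1 of 12 h (0.328).

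The 2 precursors differed in how counts were divided between arms. For mir-191 there were 2011, 2002 and 3598 counts of the 5p arm per count of the 3p arm at 0 h. At 5 h the ratio was 2323, 2306 and 4478, and at 12 h it was 2117, 3266.5 and 3430.4. In each group replicate 3 had the highest ratio, and the 5p arm held at least 99.9501% of the mir-191 counts in all 9 libraries. Among 150 precursors with both arms and a mean of at least 10 counts for the lesser arm, mir-191 had the 10th most uneven arms, with a mean log2 ratio of 11.41. This filter leaves out precursors with a very rare lesser arm, such as let-7g (43072 CPM for 5p, 0.856 CPM for 3p). The rank therefore holds only among the 150.

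For mir-425 the 5p arm had 0.702, 0.835 and 0.491 counts per count of the 3p arm at 0 h. It had 0.886, 0.9399 and 0.968 at 5 h, and 1.0004, 0.672 and 0.401 at 12 h. The 5p arm thus held 28.6% (replicate 3 of 12 h) to 50.01% (replicate 1 of 12 h) of the mir-425 counts, and the 2 lowest shares were those of the 2 shallowest libraries. With a mean log2 ratio of -0.44, mir-425 ranked 144 of the 150 precursors by unevenness. The 5p arm was the larger in 77 of the 150 precursors, mir-191 among them, and mir-425 was not.

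Neither arm ratio passed a test between times. For mir-425 the log2 ratio of 5p to 3p differed by 0.49 at 5 h (SE 0.39, limma adjusted p = 0.690), -0.03 at 12 h against 0 h (SE 0.39, limma adjusted p = 0.975) and -0.53 at 12 h against 5 h (SE 0.39, limma adjusted p = 0.847). Without the 2 shallowest libraries these values were 0.28, 0.10 and -0.18. The difference at 12 h against 0 h turned, and it was 0.31 when replicate 3 of 12 h was dropped, 0.14 when replicate 2 of 0 h was and 0.012 when replicate 1 of 0 h was. For mir-191 the differences were 0.24 (limma adjusted p = 0.924), 0.24 (0.876) and -0.01 (0.999), each with an SE of 0.41. They were 0.52, 0.39 and -0.13 without the 2 shallowest libraries. Without replicate 3 of 5 h, the library with the highest mir-191 ratio, the first was -0.075 and the last 0.31, and without replicate 1 of 12 h the last was 0.21. The limma test called 0 of 150 precursors (0%) in each comparison, and 9, 8 and 11 had an unadjusted p under 0.05. The SD within a time was 0.45 for mir-425 and 0.48 for mir-191, against a median of 0.87 over the 150. From the highest, these ranked 109 and 105 of 150, so other precursors had smaller SDs. The 150 needed a mean of only 10 counts in the lesser arm, whereas each mir-425 arm had at least 6078 counts per library. The median is thus no measure of the spread of well-covered arms, and steadiness of the mir-425 ratio cannot be read from it.

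**Figure D4:**
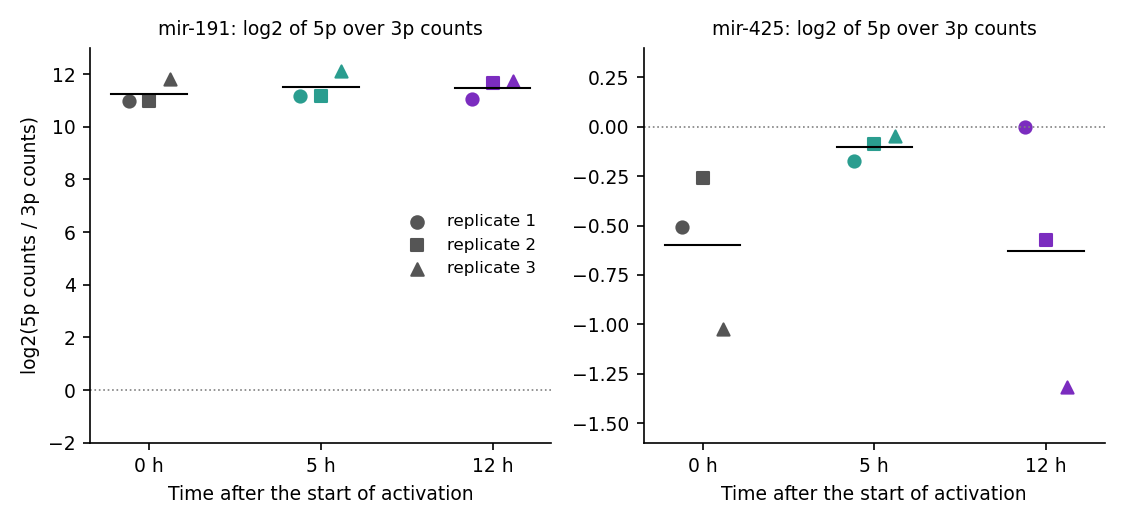
log2 of 5p counts over 3p counts in each library, for mir-191 (left) and mir-425 (right, with its own vertical scale), by time after the start of activation. Points are libraries, bars are means of 3 and the dotted line marks equal counts; mir-191 lies between 10.97 and 12.13, and mir-425 between -1.32 and 0.000572 with replicate 3 of 0 h and of 12 h lowest.

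The ratio of miR-191-5p to miR-425-5p compares the 5p arms of the 2 hairpins of 1 intron and needs no scaling between libraries. It was 76.4, 75.1 and 90.03 at 0 h, 69.7, 72.4 and 60.6 at 5 h, and 61.1, 68.9 and 84.1 at 12 h. All 3 values at 5 h lay below all 3 at 0 h, and the 2 highest of the 9 were those of the 2 shallowest libraries. The mean log2 ratio differed by -0.25 at 5 h (exact two-sided permutation p = 0.1, adjusted p = 0.3 over 3 pairs), the smallest p that 3 against 3 can reach. It differed by -0.18 at 12 h against 0 h (exact permutation p = 0.4, adjusted p = 0.6) and 0.07 at 12 h against 5 h (exact permutation p = 0.8, adjusted p = 0.8). Without the 2 shallowest libraries the values were -0.17, -0.22 and -0.05, the last with its sign turned, as it was without replicate 3 of 5 h (-0.0054).

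With TMM scaling miR-191-5p and miR-425-5p varied less over the 9 libraries than the median miRNA, and miR-425-3p varied more than most. The coefficient of variation (SD over mean of CPM) was 9.31% for miR-191-5p, 8.06% for miR-425-5p and 30.8% for miR-425-3p. Counted from the lowest, these ranked 35, 17 and 114 among the 119 mature miRNAs with a mean of at least 100 CPM, whose median was 12.7%. These values depend on the scaling. With library totals alone miR-191-5p had 6.29% and miR-425-5p 11.1%, and with upper quartile factors 11.4% and 11.7%, so that their order turned under both. Without the 2 shallowest libraries that of miR-425-3p was 19.6%. Among 28 miRNAs within 2-fold of the level of miR-425-5p, 4 had a lower coefficient of variation, and among 25 within 2-fold of miR-425-3p, 24 did. All 4 miRNAs within 2-fold of miR-191-5p had a lower one, with a median of 8.83%. miR-191-3p, below 100 CPM, had 25.6%.

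In a list of 13 miRNAs often used as references in PCR, and with TMM scaling only, miR-425-5p had the third lowest and miR-191-5p the sixth lowest coefficient of variation. miR-26a-5p, a repressor of the chromatin modifier EZH2, was lowest with 5.86%, followed by miR-16-5p with 6.71%. miR-103a-3p, which is encoded in PANK introns, had 9.71%, the median of the list, and miR-93-5p, of the miR-106b/miR-25 cluster, was highest with 20.4%. In edgeR 0 of the 13 passed in any of the 3 comparisons, beside 1.57%, 1.43% and 0.571% of all 701 rows. This is near that background and does not set the list apart from other rows. With no filter on low counts 1 of the 13, miR-93-5p, passed at 5 h, beside 17 of 1214 rows. The median log2 change of the list was -0.03 at 5 h, -0.05 at 12 h against 0 h and 0.01 at 12 h against 5 h, beside 0.03, 0.01 and -0.03 over all 701 rows.

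**Figure D5:**
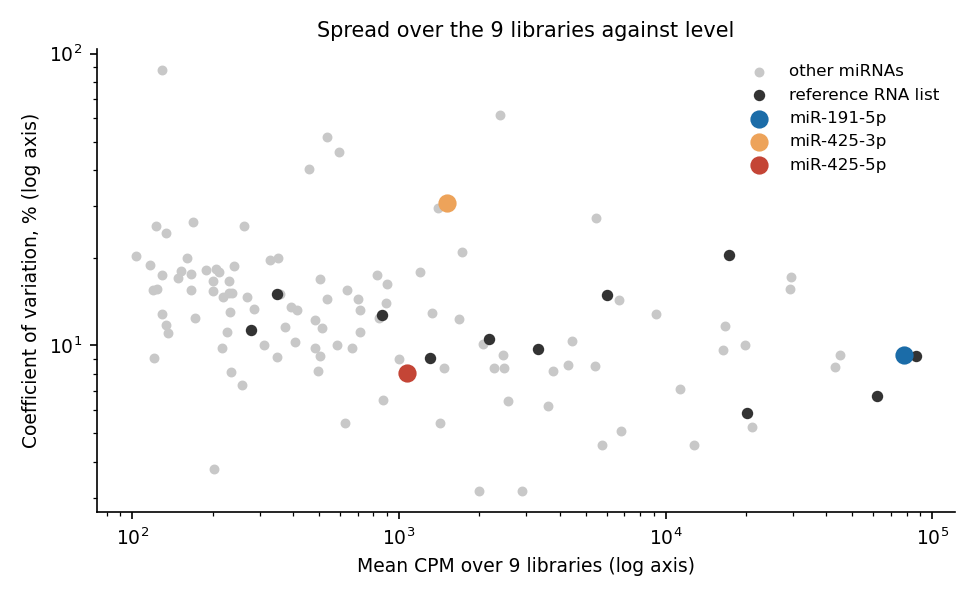
Coefficient of variation of CPM over 9 libraries (log axis) against mean CPM (log axis) for the 119 mature miRNAs with at least 100 CPM, 1 point each. Black points are the reference list and coloured points the cluster; miR-191-5p (9.31%) and miR-425-5p (8.06%) lie below the median of 12.7% and miR-425-3p (30.8%) well above it.

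The members of the cluster were not each other's nearest in pattern. Likeness was measured as the SD over 9 libraries of the log2 ratio of 2 miRNAs, among those with at least 100 CPM. The ratio of miR-425-5p to miR-191-5p had an SD of 0.19, which placed miR-425-5p 43rd of 118 miRNAs by likeness to miR-191-5p. Nearest to miR-191-5p, members aside, were miR-421 (SD 0.08), miR-130b-3p (0.09) and miR-183-5p (0.10), against a median of 0.23 over 116. Nearest to miR-425-5p were miR-342-3p (0.08), miR-103a-3p (0.09) and miR-23a-3p (0.11), against a median of 0.20. The log2 ratio of the mir-425 arms had an SD of 0.46, which placed miR-425-3p 113th of 118 by likeness to miR-425-5p. Seen from miR-425-3p, miR-425-5p was 60th of 118, near that arm's median of 0.47, and miR-191-5p was 24th with an SD of 0.32. As ratios within a library these values need no scaling between libraries. All of them share the same libraries, and they describe these 9 libraries only.

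Along the chromosome, the cluster stood among miRNA genes with few or no counts. Within 5 Mb of mir-191 the RefSeq table has 18 other precursors, with 28 mature miRNAs in the count table. Of these, 15 had 0 counts in all libraries and 9 passed the filter on low counts. Only let-7g-5p, encoded 3248 kb away on the same strand, reached 100 CPM, with 43072 ± 3629 CPM (SD, n = 9). In edgeR 0 of the 9 passed in any comparison, beside 1.57%, 1.43% and 0.571% of all 701 rows in the 3 comparisons. No neighbour passing is thus near that background. Apart from let-7g-5p, the 9 had means of only 0.331 to 15.5 CPM, where a change could hardly pass.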

How the data were processed

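The authors deposited raw counts per pair of precursor and mature miRNA for each library, and a table of log2 normalised values. Per the submitters' processing notes GRCh38.p13 was the genome build and the tools included DESeq2. Its version, the aligner, the counter and the small RNA library kit were not given in the sources used here. The 430 log2 rows, deposited as log2 of 1 plus the count after division by a library factor, served only in an alternative. A miRNA with several precursors often has its counts repeated on each row, which enlarges the CPM total; the 4 members have 1 row each.

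Groups and replicates came from the labels; the mRNA and ribosome profiling libraries of the study were not analysed here. Rows passing filterByExpr (701 of 1214 above 0) were TMM scaled and fitted in edgeR 4.0.16 (R 4.3.3) by quasi-likelihood over all 9 libraries, with Benjamini-Hochberg adjustment over 701 rows, and the SE was derived from the test. Arm ratios (pseudocount 0.5) were fitted in limma 3.58.1 over 150 precursors. Shares and the ratio of 5p arms were compared by exact permutation. Hairpins were folded with RNAfold 2.7.2. Replicate libraries were not duplicates (chi-square over degrees of freedom 83.6 or more). Counting error assumes independent reads, although PCR copies cannot be recognised without molecular identifiers.

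Members and lists were chosen with earlier results of these data known. The text names the members, their neighbours in level, the 3 nearest in pattern to each 5p arm, and fixed lists of reference RNAs, chromosome neighbours, shared seeds, lymphoid miRNAs and miRNAs of other cell types. The alternatives were other scalings, filters, tests (DESeq2 1.42.0, limma-voom), samples in the fit, a replicate block, the deposited log2 values, 1 row per mature miRNA and each library left out; leaving out the 2 shallowest libraries was chosen after seeing the data.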

Additional observations from a re-analysis of the deposited data

How the results depend on the processing

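The changes of the 4 arms in 3 comparisons were recomputed under 21 alternatives. Of the 252 values 3 passed, all for miR-425-3p between 12 h and 5 h: with no filter (log2 change 0.60, edgeR adjusted p = 0.00127), with a replicate block (0.53, edgeR adjusted p = 0.0112) and after leaving out replicate 1 of 12 h (0.81, edgeR adjusted p = 0.00259). Leaving out each library in turn gave 0.31 to 0.81. The test had 7284 degrees of freedom with no filter and 164 with the block, against 18.0 as reported. The cause was not tested.

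Direction turned in 13 of the 252 values, none past the threshold, and 8 of the 12 changes never turned. At 12 h against 0 h, miR-191-5p had a log2 change of 0.10 with upper quartile factors, 0.00175 without the 2 shallowest libraries and -0.15 to 0.036 with each library left out. Leaving out each library gave miR-425-3p -0.12 to 0.44 there. Between 12 h and 5 h it gave miR-191-3p -0.29 to 0.22 and miR-425-5p -0.079 to 0.091, the former turning without replicate 1 of 0 h, 3 of 5 h or 1 of 12 h and the latter without replicate 1 or 2 of 0 h or 1 or 2 of 12 h. Library totals alone gave miR-425-5p -0.000647.

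The log2 arm ratio of mir-191, with each library left out, changed by -0.075 to 0.52 at 5 h against 0 h and by -0.17 to 0.31 at 12 h against 5 h. That of mir-425 at 12 h against 0 h changed by -0.35 to 0.31, and by 0.10 without the 2 shallowest libraries. The log2 ratio of the 5p arms differed by -0.054 to 0.18 between 12 h and 5 h with each library left out, and by -0.054 without the 2 shallowest. The share of the cluster at 12 h against 0 h differed by -0.699 to 0.347 percentage points, and by 0.408 without the 2 shallowest. The coefficient of variation of miR-191-5p was 6.29% with library totals alone and 11.4% with upper quartile factors, and that of miR-425-5p 11.1% and 11.7%. The SD of the log2 ratio of miR-103a-3p to miR-425-5p was 0.039 without the 2 shallowest libraries. The causes were not tested.

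Over all rows, no filter gave 17 calls at 5 h against 0 h (10 higher, 7 lower) and 12 at 12 h against 5 h (8 higher, 4 lower). The deposited log2 values, with 430 rows, gave 5 at 5 h and 6 at 12 h against 0 h. Fitting only the 2 groups compared gave 6 at 12 h against 0 h. Each library left out gave 9 to 11, 8 to 10 and 3 to 10 calls in the 3 comparisons, the last with 10 without replicate 1 of 12 h. Upper quartile factors raised the median of all rows at 12 h against 0 h by 0.16, where 90% of calls were higher against 70% as reported, and 87.5% with library totals.

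The labels do not say whether replicate numbers pair the samples. Deviations of same-numbered libraries had correlations of -0.57 to 0.62 over 139 rows, and those of differently numbered libraries -0.72 to 0.72. Such correlations cannot decide whether the samples were paired. The replicate block moved the calls from 4 to 11 between 12 h and 5 h (7 higher, 4 lower), and gave the ratio of the 5p arms an exact p of 0.25, 0.25 and 1. With 3 replicates per group this blocked test cannot go below 0.25, so it could not have passed the threshold. For miR-191-3p, counting error was 8.19% in the shallowest library, and the spread over 9 libraries was 25.6%.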

Other observations

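miR-425-3p shared its pattern over the libraries with miRNAs from other loci, which were looked for after its values were seen. By the SD of the log2 ratio over 9 libraries its nearest were miR-1307-3p (0.13), miR-7-5p (0.15) and miR-1246 (0.17), against a median of 0.47 over 116 miRNAs with at least 100 CPM. miR-1307-3p had 1471, 983 and 1706 CPM at 0 h, 1189.7, 1008 and 1070.2 CPM at 5 h, and 1197, 1719.9 and 2197 CPM at 12 h. miR-7-5p, a miRNA of neurons and endocrine cells that also occurs in cancer lines, had 5268, 5118 and 6729 CPM at 0 h, 4003, 5017 and 4128 CPM at 5 h, and 3853, 6670.2 and 8286 CPM at 12 h. miR-1246, whose reads can also come from a small nuclear RNA, had 308 CPM in replicate 1 and 875 CPM in replicate 3 of 12 h. Its replicate 2 of 12 h, at 446 CPM, was below its replicate 1 of 0 h, at 472 CPM, unlike for miR-425-3p. In all 3, replicate 3 of 12 h was the highest library, as for miR-425-3p. The 3 were chosen for their likeness to miR-425-3p, so a shared highest library follows largely from that choice. The part of library depth in this was not tested.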
